A study of Mus musculus with 36 samples.

Results

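In all, 10 genes of tumour necrosis factor (TNF) receptor signalling were followed across conventional dendritic cells of mouse bone marrow. They are 7 receptors (Tnfrsf1a, Tnfrsf1b, Tnfrsf4, Tnfrsf9, Tnfrsf11a, Tnfrsf13c and Ltbr), the adaptor gene Traf1, the deubiquitinase gene Tnfaip3 and the ubiquitin ligase gene Birc3. The members were picked by name from the TNF receptor and TRAF pathway, 10 of the 53299 genes in the table, and all 10 were among the 12463 genes that passed the filter on low counts. Levels are CPM, the counts of a gene scaled to a fixed library total after TMM scaling, and differences are log2 fold changes from an edgeR quasi-likelihood fit over all tested genes. Values after ± are standard deviations for levels and standard errors for log2 fold changes.

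Receptors of this family sit in the cell membrane as trimers and bind trimeric ligands such as TNF, lymphotoxin, RANK ligand and BAFF. Most have no enzyme of their own: they recruit TRAF adaptor proteins and the ubiquitin ligases cIAP1 and cIAP2, and the ubiquitin chains built there recruit the kinases that release NF-kB. NF-kB in turn drives genes that feed back on the same complex, including the A20 deubiquitinase (Tnfaip3), TRAF1 and cIAP2 (Birc3). In dendritic cells this circuit is known for its part in maturation, survival and the dialogue with T cells.

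The cells are FLT3 ligand-derived cDC1, the subset known for cross-presentation to CD8 T cells, and cDC2, the subset known for priming CD4 T cells. Each subset was left untreated or received LPS (lipopolysaccharide, the TLR4 agonist of Gram-negative bacteria), PGPC (an oxidised phospholipid), or LPS with PGPC. Full-length cDNA libraries (Smart-Seq2) were made from RNA worth about 2000 cells. There were 3 libraries per group, except cDC2 with PGPC, where 2 were used, so 23 libraries in 8 groups enter this account of the 36 deposited. The 12 alum libraries and 1 cDC2 library with PGPC were left out. The cDC1 replicates carry the numbers 1 to 3 and the cDC2 replicates 4 to 6, and the design text calls them biological. No source used here gives the mice, cultures or days behind them, the mouse strain and age, the doses, the times or any sort, so the p-values measure the spread between these libraries.

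Because the NF-kB pathway runs through these genes, their RefSeq promoter windows (GRCm38.p6, 250 bases before to 50 after each annotated start) were searched on both strands for a 10-base NF-kB consensus, for the AP-1 motif TGANTCA and for the PU.1 motif GAGGAAG. The table held 12 windows for the 10 members. The consensus was in 4.51% of all 32851 windows, the AP-1 motif in 7.81% and the PU.1 motif in 13.6%. Among the members it lay in 1 of 2 windows of Tnfaip3 and in 1 of 2 windows of Tnfrsf9, and both of those windows also held the AP-1 motif. It was in neither Traf1 nor Birc3, which are shown for contrast because their transcripts rose with LPS. The PU.1 motif was in the Tnfrsf1b window. In the sequences, capitals mark the NF-kB consensus, 5′ to 3′ on the strand of the gene.
Tnfaip3 promoter, chr10:19015361-19015660, minus strand: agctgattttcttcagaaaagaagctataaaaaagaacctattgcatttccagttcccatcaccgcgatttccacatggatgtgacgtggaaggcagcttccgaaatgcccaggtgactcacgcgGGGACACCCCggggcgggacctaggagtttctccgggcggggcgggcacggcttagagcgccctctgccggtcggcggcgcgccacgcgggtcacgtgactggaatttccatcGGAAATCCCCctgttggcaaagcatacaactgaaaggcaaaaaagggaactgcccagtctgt
Tnfrsf9 promoter, chr4:150927749-150928048, plus strand: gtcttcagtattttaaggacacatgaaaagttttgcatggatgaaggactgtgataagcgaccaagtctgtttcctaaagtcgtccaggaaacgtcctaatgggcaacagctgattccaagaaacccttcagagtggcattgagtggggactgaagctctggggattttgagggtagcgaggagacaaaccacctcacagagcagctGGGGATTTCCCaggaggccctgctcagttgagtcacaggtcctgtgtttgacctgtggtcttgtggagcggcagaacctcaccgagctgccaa
Traf1 promoter, chr2:34961723-34962022, minus strand: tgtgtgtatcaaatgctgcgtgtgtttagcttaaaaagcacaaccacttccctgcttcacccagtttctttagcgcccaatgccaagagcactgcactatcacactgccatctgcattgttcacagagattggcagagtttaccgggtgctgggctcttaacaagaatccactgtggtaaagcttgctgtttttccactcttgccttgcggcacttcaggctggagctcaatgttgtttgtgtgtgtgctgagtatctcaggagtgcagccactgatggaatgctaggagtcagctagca
Birc3 promoter, chr9:7873121-7873420, minus strand: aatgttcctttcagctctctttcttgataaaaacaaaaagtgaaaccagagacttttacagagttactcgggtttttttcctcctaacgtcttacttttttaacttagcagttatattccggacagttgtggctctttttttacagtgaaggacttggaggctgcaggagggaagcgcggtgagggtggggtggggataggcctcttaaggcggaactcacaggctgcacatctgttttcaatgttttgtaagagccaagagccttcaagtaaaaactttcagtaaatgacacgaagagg
The Tnfaip3 window held separate matches beginning 125 and 12 bases before the start. In the Tnfrsf9 window 3 overlapping matches, read on both strands, covered 1 stretch beginning 43 bases before the start. A match is a string of letters and says nothing of binding in these cells.

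Total counts ran from 243870 in replicate 6 of untreated cDC2 to 16601064 in replicate 1 of cDC1 with PGPC, and libraries of a group had a Spearman correlation of 0.824 to 0.961 over genes. Counts at a ribosomal RNA locus took 53.2 ± 16.5% of the total in untreated cDC1 and 56.5 ± 6.25% in cDC2 with PGPC, against group means of 21.9% to 32.5% elsewhere. Of the genes that define the subsets, Batf3, Irf8 and Clec9a were lower in untreated cDC2 than in cDC1 (log2 fold changes of -5.56, -3.53 and -5.38) and Sirpa was higher (1.62). Xcr1, a cDC1 marker, was near 0 in both untreated subsets, and Irf4, a cDC2 marker, was higher in cDC1 (-2.84). The labels cDC1 and cDC2 are used here as given.

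The members differed widely in level. Per kilobase of the longest transcript, Tnfrsf1a (42.0 ± 21.3 CPM per kilobase), Ltbr (34.3 ± 7.99) and Tnfrsf1b (31.8 ± 6.58) were highest in untreated cDC1, and these 3 overlapped. In untreated cDC2 Tnfrsf1b (91.6 ± 15.3) and Tnfrsf11a (86.8 ± 10.5) were highest and did not differ beyond their spread. With LPS the order turned to the signalling genes in cDC1, where Traf1 (250 ± 160), Birc3 (116 ± 14.8) and Tnfaip3 (87.3 ± 17.3) were above every receptor by mean. In cDC2 with LPS, Tnfrsf1b stayed first at 437 ± 58.5, ahead of Traf1 at 178 ± 84.4. Dividing by the mean transcript length in place of the longest placed Tnfrsf1a first in untreated cDC2, so the order of the receptors rests on that choice.

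**Figure D1:**
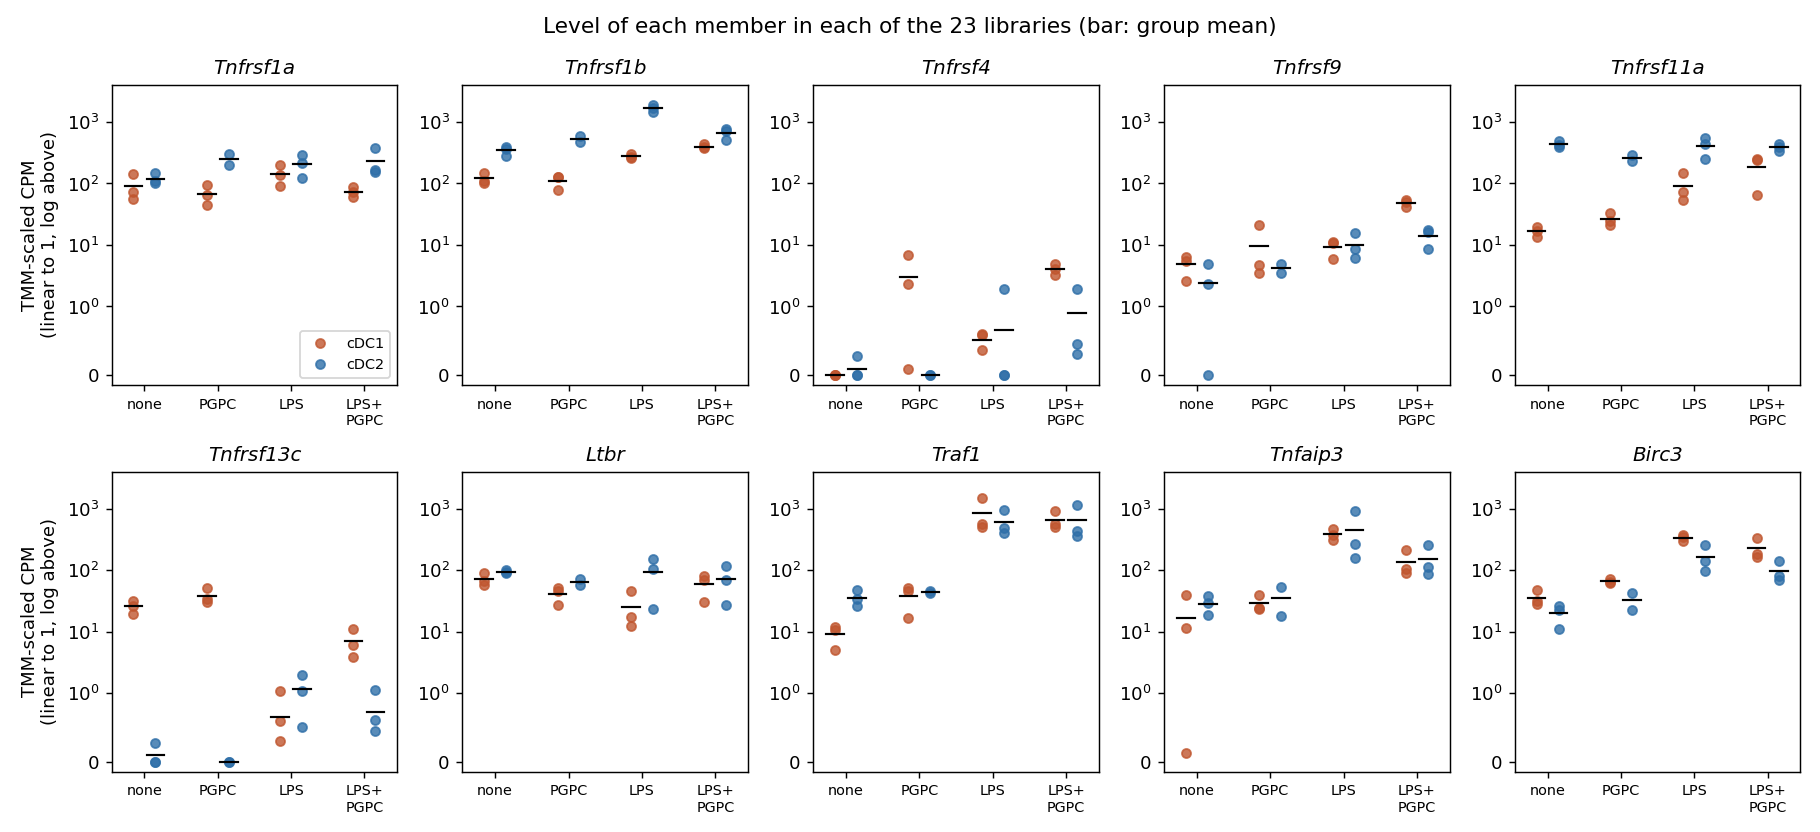
TMM-scaled CPM of each member in the 23 libraries, by treatment on the horizontal axis, with 1 point per library and a bar at the group mean; the vertical axis is linear up to 1 and logarithmic above. Traf1, Tnfaip3 and Birc3 lie higher with LPS and with LPS and PGPC in both subsets, Tnfrsf11a lies apart in the untreated subsets, and Tnfrsf13c lies above 19 CPM only in cDC1 that were untreated or had PGPC.

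In the whole-table fit, LPS against untreated cells called 6 of the 10 members in cDC1, 5 higher and 1 lower, where 17.9% of all tested genes were called. In cDC2 it called 4, all higher, against 8.52% of all genes. The median log2 fold change of the 10 was 1.83 in cDC1 and 2.05 in cDC2, where all tested genes had -0.12 and 0.03. LPS with PGPC against untreated cells called 8 members in cDC1 (7 higher, 1 lower; 11.9% of all genes) and 2 in cDC2 (both higher; 7.62%). These comparisons share the untreated libraries. PGPC alone called 1 member in cDC1 (2.08% of all genes) and 0 in cDC2 (0.016%), where edgeR gave 1 member an unadjusted p under 0.05 and DESeq2 called 0. Between the subsets, cDC2 against cDC1 called 4 members untreated (10.2% of all genes), 3 with LPS (7.8%), 4 with PGPC (12.1%) and 2 with LPS and PGPC (7.14%). Called means an adjusted p below 0.05, and the members were chosen with earlier results of these data known, so their counts are a description.

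Adding PGPC to LPS called 2 members in cDC1, both higher, against 1.93% of all genes. In cDC2 it called 0, against 0.385% of all genes, where edgeR gave 1 member an unadjusted p under 0.05 and DESeq2 called 1. The LPS response differed between the subsets for 2 members (1.33% of all genes), and the effect of adding PGPC to LPS differed for 0 (0.00802%), with 4 unadjusted p under 0.05 and 1 call by DESeq2. Refitting with all 36 libraries brings in the alum libraries and the cDC2 library with PGPC that was left out. That fit ended 28 of the 38 member calls made with 23 libraries, and reversed 0. The counts of calls below are therefore those of the 23-library fit.

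Among the 7 receptors of the members, only Tnfrsf1b was called higher with LPS in both subsets. It encodes TNFR2, the TNF receptor that lacks a death domain. It lies on chromosome 4 (GRCm38 chr4:145213463-145246870, minus strand). Its CPM in cDC1 were 111, 150 and 103 untreated and 259, 272 and 304 with LPS. In cDC2 they were 369, 396 and 284 untreated and 1427, 1866 and 1716 with LPS. Every LPS library lay above every untreated library of its subset, and every cDC2 library with LPS lay above every other library of the 23. The log2 fold changes were 1.19 ± 0.31 in cDC1 (adjusted p = 0.00876) and 2.25 ± 0.32 in cDC2 (adjusted p = 4.5e-05), and their difference of 1.05 ± 0.44 did not pass (adjusted p = 0.273). The cDC1 call was lost without replicate 3 of cDC1 with LPS (adjusted p = 0.0538) and without the filter on low counts (0.0624). In bulk RNA, fewer cells of a type and less RNA per cell cannot be told apart, here or below.

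With LPS and PGPC, Tnfrsf1b lay above its LPS level in cDC1 and below it in cDC2, but neither difference passed the threshold. In cDC1 it was at 375, 433 and 387 CPM, a log2 fold change of 0.52 ± 0.31 from LPS alone (adjusted p = 0.406). In cDC2 it was at 721, 516 and 757 CPM, -1.33 ± 0.31 from LPS alone (adjusted p = 0.0556), and no library overlapped those with LPS alone. That cDC2 difference passed with RLE scaling (adjusted p = 0.0337), without replicate 4 of cDC2 with LPS (0.0371) and with DESeq2. The difference between the subsets was -1.85 ± 0.44 (adjusted p = 0.212), and passed without replicate 4 of cDC2 with LPS (0.0451) and with DESeq2. Against untreated cells the combination raised Tnfrsf1b in cDC1 by 1.71 ± 0.31 (adjusted p = 0.00057), and in cDC2 the value was 0.92 ± 0.31 (adjusted p = 0.0707).

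Tnfrsf1b was also higher in cDC2 than in cDC1 without treatment (1.53 ± 0.31, adjusted p = 0.0025), with LPS (2.58 ± 0.32, adjusted p = 1.81e-05) and with PGPC (2.26 ± 0.34, adjusted p = 0.000154). With LPS and PGPC the subsets stood 0.74 ± 0.31 apart (adjusted p = 0.161). The summed level of the 14 monocyte or macrophage markers also stood apart, at 9209 to 10240 CPM in untreated cDC2 against 2286 to 6020 in untreated cDC1, and at 3561 to 9725 against 977 to 2219 with LPS. With PGPC it was 7986 to 10503 against 5431 to 7394, and with LPS and PGPC 3947 to 10620 against 723 to 1101. All 14 had counts in both untreated groups, F13a1 was at 0 in cDC1 with LPS and Ly6c2 in cDC2 with PGPC. The part of other cells in the difference was not tested.

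Tnfrsf1a, which encodes TNFR1, the death domain receptor of TNF present on most cells, passed in none of the treatment comparisons. It lies at chr6:125349362-125362484, plus strand. Its levels in cDC1 were 143, 56.3 and 72.7 CPM untreated, 197, 137 and 90.1 with LPS, and 60.1, 87.4 and 73.5 with LPS and PGPC. In cDC2 they were 110, 148 and 101 CPM untreated, 292, 212 and 124 with LPS, and 377, 155 and 166 with LPS and PGPC. The groups overlapped with LPS in both subsets, with log2 fold changes of 0.66 ± 0.44 in cDC1 (adjusted p = 0.318) and 0.80 ± 0.44 in cDC2 (adjusted p = 0.349).

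Between the subsets, Tnfrsf1a was higher in cDC2 with PGPC (196 and 300 CPM against 44.3, 66.1 and 95.1; log2 fold change 1.85 ± 0.49, adjusted p = 0.0144, n = 2 and 3 in the edgeR fit) and with LPS and PGPC (1.66 ± 0.45, adjusted p = 0.0232). The first call was lost without replicate 1 of cDC1 with PGPC (adjusted p = 0.0619) or replicate 5 of cDC2 with PGPC (0.168). The other was lost without replicate 1 (0.076), replicate 2 (0.0501) or replicate 3 (0.0721) of cDC1, or replicate 4 of cDC2 (1.13 in log2, adjusted p = 0.191), with that treatment. Untreated and with LPS the values were 0.43 ± 0.44 and 0.57 ± 0.44 and did not pass.

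Ltbr, the lymphotoxin beta receptor, feeds the alternative NF-kB pathway and is known for dendritic cell upkeep in lymphoid tissue. It lies at chr6:125306571-125313885, minus strand. In cDC1 its levels were 58.2, 91.0 and 68.0 CPM untreated, 17.5, 12.4 and 45.6 with LPS, and 30.7, 69.9 and 79.4 with LPS and PGPC. All LPS libraries lay below all untreated ones, and the log2 fold change of -1.52 ± 0.57 had an adjusted p of 0.0656. It passed with DESeq2 (adjusted p = 0.0411) and without replicate 3 of cDC1 with LPS (0.018). In cDC2 the LPS libraries ran from 23.6 through 106 to 155 CPM around untreated values of 91.9, 100 and 89.8.

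With LPS, Ltbr was called higher in cDC2 than in cDC1 by 1.90 ± 0.58 (adjusted p = 0.0427), although the groups overlapped: replicate 4 of cDC2, at 23.6 CPM, lay below replicate 3 of cDC1. The call was lost without replicate 1 (adjusted p = 0.196) or replicate 2 (0.161) of cDC1 with LPS, or without replicate 5 (0.242) or replicate 6 (0.0913) of cDC2 with LPS. Replicate 4 of cDC2 was also the lowest with LPS and PGPC, at 27.2 CPM against 70.0 and 116. The same replicate had the highest Traf1 of its group under both treatments.

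**Figure D2:**
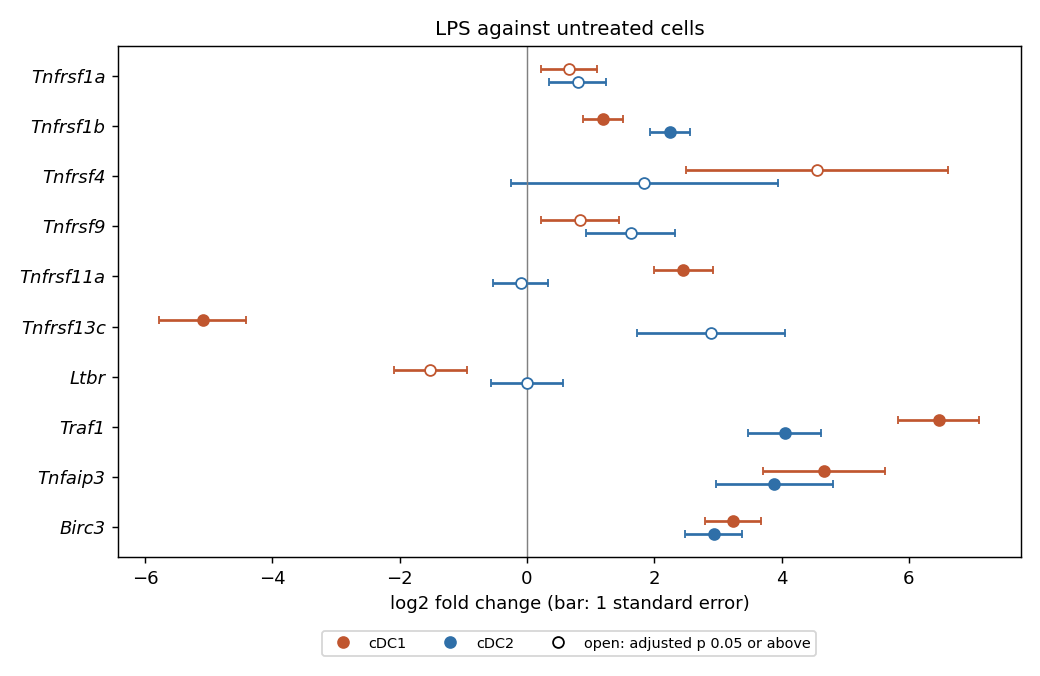
Log2 fold change of each member with LPS against untreated cells in cDC1 and cDC2, with bars of 1 standard error; filled points have an adjusted p below 0.05. Traf1, Tnfaip3, Birc3 and Tnfrsf1b lie to the right in both subsets, while Tnfrsf11a is at 2.46 in cDC1 and -0.10 in cDC2 and Tnfrsf13c is at -5.09 in cDC1.

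Tnfrsf11a encodes RANK, the receptor through which RANK ligand on T cells prolongs dendritic cell survival, and lies at chr1:105780718-105847981, plus strand. It set the untreated subsets apart: 17.1, 13.5 and 19.4 CPM in cDC1 against 389, 494 and 427 in cDC2. The lowest cDC2 library stood far above the highest cDC1 library, and the log2 fold change was 4.71 ± 0.51 (adjusted p = 4.9e-06). This call held in all settings tried, including the fit of 36 libraries (adjusted p = 0.0441). The sum of the monocyte or macrophage markers given beside Tnfrsf1b stood apart in the same direction, but Ly6c2 of that list was called lower in untreated cDC2.

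LPS raised Tnfrsf11a in cDC1 to 54.8, 71.5 and 148 CPM, all above the untreated libraries (2.46 ± 0.46, adjusted p = 0.000536). LPS with PGPC brought it to 65.1, 245 and 246 CPM, 3.48 ± 0.48 above untreated (adjusted p = 2.33e-05). Replicate 1 was the lowest of each of these groups. In cDC2 the levels with LPS were 246, 433 and 544 CPM, around the untreated values, and the log2 fold change was -0.10 ± 0.43 (adjusted p = 0.948). The combination gave 388, 337 and 431 CPM, again overlapping the untreated libraries.

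The LPS responses of Tnfrsf11a differed between the subsets by -2.56 ± 0.63 (cDC2 minus cDC1, adjusted p = 0.0384). This call was lost when any of 9 of the 12 libraries was left out: replicates 2 (adjusted p = 0.0597) and 3 (-1.96 in log2, adjusted p = 0.142) of cDC1 with LPS, replicates 1 (0.0588), 2 (0.11) and 3 (0.0662) of untreated cDC1, replicate 5 of cDC2 with LPS (0.0797), and replicates 4 (0.076), 5 (0.101) and 6 (0.0736) of untreated cDC2. The subset difference was 2.16 ± 0.45 with LPS (adjusted p = 0.00254), 3.32 ± 0.49 with PGPC (adjusted p = 0.000126) and 1.06 ± 0.43 with LPS and PGPC (adjusted p = 0.153). With PGPC alone the levels were 32.9, 21.2 and 24.4 CPM in cDC1 and 289 and 234 in cDC2, and neither treatment comparison passed.

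Tnfrsf13c encodes the BAFF receptor, best known on B cells, and lies at chr15:82221743-82224369, minus strand. It was detected in untreated cDC1 at 19.7, 31.6 and 26.2 CPM and fell to 1.07, 0.59 and 0.294 CPM with LPS, from 446 summed counts to 14. The groups did not overlap, and the log2 fold change of -5.09 ± 0.68 (adjusted p = 1.45e-05) held in all settings tried. With LPS and PGPC the level was 6.16, 3.87 and 11.1 CPM, between the other groups and overlapping neither.

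Tnfrsf13c in cDC1 was thus 3.22 ± 0.65 higher with LPS and PGPC than with LPS alone (adjusted p = 0.00968) and lower than untreated (-1.88 ± 0.55, adjusted p = 0.0253). The first call was lost without replicate 2 of cDC1 with LPS (adjusted p = 0.05 after rounding, at the threshold) and replicate 3 of cDC1 with LPS and PGPC (0.0527). The second was lost without the filter on low counts (0.102), without replicate 1 (0.0741) or 2 (0.111) of cDC1 with LPS and PGPC, or without replicate 2 (0.0858) or 3 (0.0552) of untreated cDC1. PGPC alone left it at 51.6, 30.9 and 33.8 CPM (0.58 ± 0.53, adjusted p = 0.658).

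In cDC2 Tnfrsf13c had 1 count in 3 untreated libraries and 0 in both PGPC libraries. Untreated cDC1 were above untreated cDC2 by a ratio of 224, with an exact 95% counting interval of 40.0 to 8864 (log2 fold change -7.45 ± 0.94, adjusted p = 3.3e-05). With PGPC, cDC2 were at least 11.4-fold lower, against a floor of 3 counts per library. With LPS and PGPC the cDC2 libraries held 10 counts in all, and the log2 fold change was -3.26 ± 0.65 (adjusted p = 0.00264). With LPS the subsets did not differ beyond their spread (0.53 ± 0.82, adjusted p = 0.895).

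The LPS responses of Tnfrsf13c differed by 7.98 ± 1.32 (adjusted p = 0.00372), a value that rests on 1 count in untreated cDC2. B cell markers moved with the subset: the summed level of the 12 was 149 to 276 CPM in untreated cDC1, 284 to 676 with PGPC, 156 to 433 with LPS and 145 to 222 with LPS and PGPC, against 7.67 to 35.8 across all cDC2 groups. The markers of the list did not move as one in cDC1. Ebf1, a B cell transcription factor, was at 5.99, 3.80 and 3.63 CPM untreated and at 0 in all 3 LPS libraries (adjusted p = 0.00114), and Cd79a, a part of the B cell receptor, went from a mean of 2.17 to 0.0981 CPM without passing. Ms4a1 (1.77 and 2.98 CPM) and Pax5 (0.555 and 2.53 CPM) had higher means with LPS, and neither passed. Cd79a was at 0 in every cDC2 library. Ighm was called lower in cDC2 than in cDC1 with every treatment (-3.84 untreated, -3.91 with LPS, -6.08 with PGPC and -3.82 with LPS and PGPC). Cd22 was called lower in cDC2 untreated (-2.81) and with PGPC (-3.91), and Cd79b untreated (-2.49). Ebf1 went the other way, called higher in cDC2 than in cDC1 with LPS (adjusted p = 0.00223) and with LPS and PGPC (3.79). Vpreb3 and Igll1 were at 0 in all groups. The 12 plasmacytoid dendritic cell markers summed to 843 to 1038 CPM in untreated cDC1, 709 to 854 with PGPC, 260 to 439 with LPS and 293 to 453 with LPS and PGPC, and in cDC2 to 56.1 to 122 untreated, 60.3 to 98.6 with PGPC, 284 to 648 with LPS and 341 to 563 with LPS and PGPC, with Klk1 at 0 throughout. In cDC2 with LPS, alone or with PGPC, the range of that sum reached above that of cDC1. Tnfrsf13c there was at 0.446 to 1.96 CPM. In cDC1 with LPS, Siglech (-3.89), Cd7 (-4.26), Atp1b1 (-4.16), Pacsin1 (-5.04) and Runx2 (-1.91) were called lower than untreated. No plasmacytoid marker was called higher there. All those called between the untreated subsets were lower in cDC2, among them Siglech (-6.03), Ly6d (-9.93), Spib (-2.93) and Bst2 (-1.66). Within cDC2 the plasmacytoid markers did not move as one. Against untreated cDC2, Bst2 was called higher with LPS (3.31) and with LPS and PGPC (3.31), as was Spib (2.11 and 2.66). Cd7 was called lower with LPS and PGPC (-3.93), and Siglech and Ly6d were at 0 with LPS. The part of B cells or plasmacytoid cells in the Tnfrsf13c values was not tested.

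Tnfrsf9 and Tnfrsf4 encode CD137 and OX40, receptors best known as inducible costimulators on T cells. Tnfrsf9, at chr4:150914562-150946102 on the plus strand, was low in most groups and highest in cDC1 with LPS and PGPC. There it was at 49.2, 41.0 and 54.8 CPM, against 5.98, 10.6 and 11.2 with LPS and 2.57, 6.45 and 5.45 untreated. The lowest of these 3 libraries was above all the other 20, of which replicate 2 of cDC1 with PGPC came nearest at 20.8 CPM. The combination was 3.24 ± 0.64 above untreated (adjusted p = 0.0011), a call that held in all settings tried.

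Against LPS alone Tnfrsf9 rose by 2.40 ± 0.61 in cDC1 (adjusted p = 0.038). That call was lost when any 1 of the 6 libraries was left out (adjusted p of 0.201, 0.128 and 0.0777 without replicates 1, 2 and 3 of LPS, and of 0.0743, 0.0508 and 0.118 without replicates 1, 2 and 3 of LPS with PGPC) and when the subsets were fitted apart (0.0673). The log2 fold change stayed between 2.14 and 2.68. In cDC2 the levels were 6.14, 8.62 and 15.7 CPM with LPS and 8.47, 17.4 and 16.2 with LPS and PGPC, and the log2 fold change was 0.50 ± 0.62 (adjusted p = 0.966). From untreated cDC2, at 4.82, 2.32 and 0 CPM, the combination stood 2.12 ± 0.68 higher with no overlap (adjusted p = 0.0552), and this passed with DESeq2 (0.0371). The 0 is from replicate 6, the smallest library, where 3 counts stand for 11.2 CPM, above the lowest library of the combination. The difference between the subsets was -1.91 ± 0.86 and did not pass (adjusted p = 0.599).

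Tnfrsf9 overlaps Camta1 on the opposite strand, and these reads carry no strand. Camta1 was at 1.28, 3.75 and 3.09 CPM in cDC1 with LPS and PGPC and at 3.04, 1.77 and 4.42 with LPS. The part of the overlap in the Tnfrsf9 values was not tested. T or NK cell markers summed to 14.1 to 29.3 CPM in cDC1 with LPS and PGPC, 1.18 to 11.9 with LPS and 7.57 to 23.5 untreated. Of the 12 markers 6 had counts in cDC1 with LPS and PGPC. Cd8a was called higher there than in untreated cDC1 (4.54 ± 1.43, adjusted p = 0.0405), and Lck was called lower (-5.52 ± 1.82, adjusted p = 0.0494). Cd3d was at 0 in all 3 of these groups and Cd3e in the untreated and LPS with PGPC groups. The part of T or NK cells in the Tnfrsf9 values was not tested.

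Tnfrsf4, at chr4:156013843-156016612 on the plus strand, was near the limit of detection. It had 0 counts in untreated cDC1 and 0.357, 0.59 and 0.589 CPM with LPS, and rose to 4.11, 3.30 and 4.87 CPM with LPS and PGPC. The combination was at least 3.61-fold higher than untreated cells, against a floor of 3 counts per library (adjusted p = 0.0171). That call was lost without replicate 2 (adjusted p = 0.0752) or 3 (0.0657) of untreated cDC1. With PGPC alone the libraries held 0.0791, 2.28 and 6.76 CPM, from 2, 7 and 106 counts, and the comparison did not pass (adjusted p = 0.0682). It passed without replicate 1 (0.0199) and with DESeq2 (0.0388). The cDC2 libraries ran from 0 to 1.96 CPM.

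**Figure D3:**
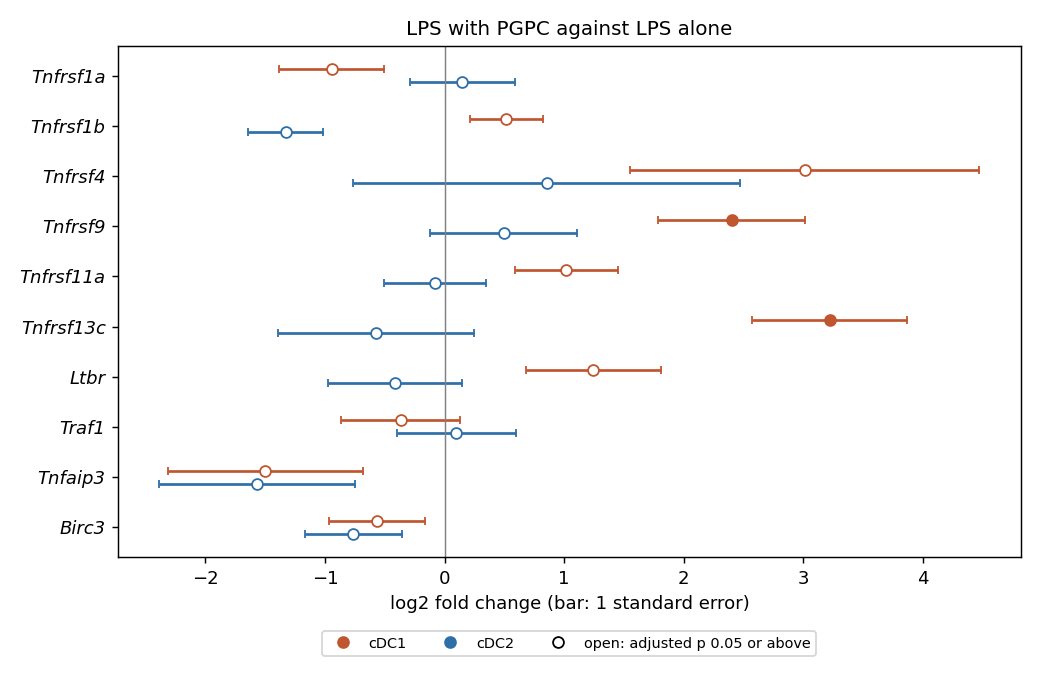
Log2 fold change of each member with LPS and PGPC against LPS alone in cDC1 and cDC2, with bars of 1 standard error; filled points have an adjusted p below 0.05. Only Tnfrsf9 (2.40) and Tnfrsf13c (3.22) in cDC1 are filled, and Tnfrsf1b lies at 0.52 in cDC1 and -1.33 in cDC2.

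Traf1 encodes an adaptor without the RING domain of other TRAFs that binds TRAF2 and cIAP proteins at the receptor, and lies at chr2:34941750-34961772, minus strand. It had the highest log2 fold change of the members with LPS. In cDC1 it went from 5.13, 10.5 and 11.96 CPM untreated to 1491, 573 and 509 with LPS and 926, 511 and 561 with LPS and PGPC. In cDC2 it went from 34.0, 47.0 and 26.2 CPM to 943, 493 and 401 with LPS and 1169, 435 and 366 with LPS and PGPC. No stimulated library overlapped an untreated one. Replicates 1 and 4 were the highest of their LPS groups.

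The log2 fold changes of Traf1 with LPS were 6.47 ± 0.64 in cDC1 (adjusted p = 3.55e-07) and 4.05 ± 0.57 in cDC2 (adjusted p = 4.43e-05). The difference of -2.43 ± 0.74 had an adjusted p of 0.11, and passed with DESeq2 (0.0297), without the filter on low counts (0.012) and without replicate 4 of cDC2 with LPS (0.0348). Adding PGPC to LPS left Traf1 within the spread, at -0.37 ± 0.50 in cDC1 and 0.10 ± 0.50 in cDC2. LPS with PGPC against untreated cells gave 6.11 ± 0.63 and 4.15 ± 0.58.

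Traf1 was also the member called with PGPC alone, in cDC1: 51.1, 16.9 and 46.6 CPM against the untreated values above, all higher (1.99 ± 0.53, adjusted p = 0.048). That call was lost with the subsets fitted apart (0.108), without any library of untreated cDC1 (0.198, 0.103 and 0.0708 for replicates 1, 2 and 3), and without replicate 1 (0.103) or 3 (0.0968) of cDC1 with PGPC. In those libraries the 12 neutrophil or granulocyte precursor markers summed to 266 to 1196 CPM, against 53.0 to 208 untreated, with Elane at 0 in both groups and Ms4a3 at 0 in untreated cells. No marker of that list was called. Of the mast cell or basophil list, Prss34 (10.7 ± 1.41, adjusted p = 0.00145) and Cpa3 (6.78 ± 1.46, adjusted p = 0.0227) were called higher with PGPC. The 8 markers of that list summed to 154 to 190 CPM, against 96.7 to 172 untreated. Fcgr1 of the monocyte or macrophage list was also called higher (2.65 ± 0.63, adjusted p = 0.0257). The part of such cells in the Traf1 values was not tested. In cDC2 with PGPC the levels were 42.7 and 46.5 CPM (0.26 ± 0.59, adjusted p = 0.999).

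Without treatment, Traf1 was 1.94 ± 0.55 higher in cDC2 than in cDC1 (adjusted p = 0.0238), with no overlap. The call was lost without replicate 1 (0.0818) or 2 (0.0747) of untreated cDC1 or replicate 5 of untreated cDC2 (0.132). With LPS the subsets differed by -0.49 ± 0.50 and with LPS and PGPC by -0.02 ± 0.50, and neither passed.

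Tnfaip3 encodes A20, which edits the ubiquitin chains at the receptor complex and restrains NF-kB, and lies at chr10:19000910-19015657, minus strand. In untreated cDC1 it was uneven, at 39.3, 0.127 and 11.5 CPM, where 0.127 stands for 1 count. With LPS it was at 379, 466 and 314 CPM in cDC1 (4.66 ± 0.95, adjusted p = 0.00129). In cDC2 it was at 29.2, 38.2 and 18.7 CPM untreated and 918, 158 and 265 with LPS (3.88 ± 0.92, adjusted p = 0.00671). All LPS libraries lay above the untreated ones of their subset. The cDC2 call was lost without replicate 4 of cDC2 with LPS (2.79 in log2, adjusted p = 0.071), the highest library.

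With LPS and PGPC, Tnfaip3 lay between the untreated and LPS levels in cDC1, at 215, 90.1 and 105 CPM, and overlapped neither. It was 3.17 ± 0.90 above untreated (adjusted p = 0.021) and -1.50 ± 0.82 from LPS alone (adjusted p = 0.364). The first of these was lost without replicate 1 of cDC1 with LPS and PGPC (0.0671) or replicate 3 of untreated cDC1 (0.081). In cDC2 the levels were 255, 111 and 86.6 CPM, with 2.32 ± 0.87 from untreated (adjusted p = 0.114, 0.0276 with the subsets fitted apart and 8.2e-05 without the filter on low counts) and -1.57 ± 0.82 from LPS alone (adjusted p = 0.679). Tnfaip3 and Birc3 were lower with the combination than with LPS alone in each of the 3 same-numbered pairs of cDC2, and the replicate block gave adjusted p of 0.701 and 0.706. The 4 comparisons of the subsets gave log2 fold changes of 0.14 to 0.99 and none passed.

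Birc3 encodes cIAP2, the ubiquitin ligase that TRAF proteins bring to the receptor, and lies at chr9:7848699-7873186, minus strand. In cDC1 it was at 28.2, 47.3 and 31.2 CPM untreated, 342, 380 and 294 with LPS, and 338, 183 and 166 with LPS and PGPC. In cDC2 it was at 22.8, 26.1 and 11.2 CPM untreated, 261, 95.9 and 141 with LPS, and 142, 80.3 and 70.4 with LPS and PGPC. The stimulated libraries stood above the untreated ones in both subsets.

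LPS raised Birc3 by 3.24 ± 0.44 in cDC1 (adjusted p = 1.54e-05) and by 2.93 ± 0.45 in cDC2 (adjusted p = 9.87e-05), and the responses differed by -0.31 ± 0.59 (adjusted p = 0.89). The combination raised it by 2.67 ± 0.43 (adjusted p = 0.000148) and 2.17 ± 0.44 (adjusted p = 0.00203). Its neighbour and paralog Birc2, which encodes cIAP1, also rose with LPS in cDC1 (12.8 ± 1.08 to 170 ± 49.7 CPM, 3.73 ± 0.60, adjusted p = 9.9e-05), and reads that match both could be split between them. Birc3 was lower in cDC2 than in cDC1 by log2 fold change in each of the 4 treatments (-0.72 to -1.23), with 0 calls by edgeR. Its adjusted p with LPS was 0.132, and 0.0246 without replicate 4 of cDC2. With LPS and PGPC it was 0.0687, and 0.0253 with DESeq2.

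**Figure D4:**
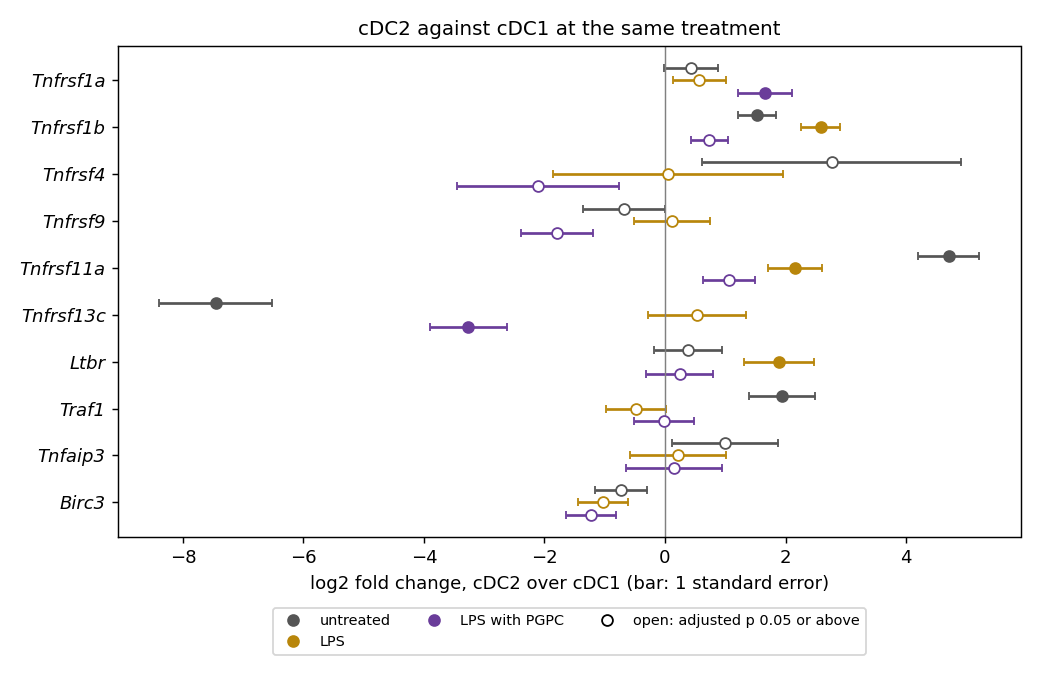
Log2 fold change of each member in cDC2 against cDC1 for untreated cells, cells with LPS and cells with LPS and PGPC, with bars of 1 standard error; filled points have an adjusted p below 0.05. Tnfrsf11a lies at 4.71 untreated, 2.16 with LPS and 1.06 with LPS and PGPC, and Tnfrsf13c at -7.45, 0.53 and -3.26.

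With PGPC alone, Traf1 in cDC1 was the call by edgeR, and the other members gave values that did not pass. The median log2 fold change of the 10 was 0.76 in cDC1 and 0.22 in cDC2, where all tested genes had 0 and -0.05. Tnfrsf1b was at 77.8, 126 and 129 CPM in cDC1 and at 465 and 598 in cDC2, the latter above all untreated cDC2 libraries (0.60 ± 0.34, adjusted p = 0.905). Ltbr was at 27.6, 46.6 and 50.8 CPM in cDC1 and at 71.2 and 56.8 in cDC2, below all untreated libraries of each subset without passing (-0.80 ± 0.56 and -0.55 ± 0.65). In cDC2, Tnfrsf1a lay above all untreated libraries (1.03 ± 0.49, adjusted p = 0.851) and Tnfrsf11a below them (-0.74 ± 0.49, adjusted p = 0.912), with the levels given above. Tnfrsf11a in cDC1 lay above all untreated libraries (0.66 ± 0.44, adjusted p = 0.503). Birc3 in cDC1 was at 63.7, 62.9 and 73.1 CPM, above all untreated libraries (0.89 ± 0.41, adjusted p = 0.273), and in cDC2 at 22.5 and 43.1. Tnfaip3 was at 39.6, 24.4 and 23.3 CPM in cDC1 and at 18.1 and 53.4 in cDC2, overlapping the untreated libraries. Tnfrsf9 was at 3.52, 20.8 and 4.78 CPM in cDC1 and at 4.93 and 3.44 in cDC2. With so few libraries per group, lying above or below all untreated libraries is a description only. The share of all tested genes that do so is not given here. Of all tested genes, edgeR called 2.08% with PGPC in cDC1 and 0.016% in cDC2.

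Around the members, 5 lists of pathway genes held 90 other genes. Their counts of calls stand against 17.9% of all tested genes with LPS in cDC1 and 8.52% in cDC2, and against 1.93% and 0.385% when PGPC was added to LPS. Of 17 TNF family ligands 9 were tested. With LPS, 4 rose and 2 fell in cDC1, with a median log2 fold change of 2.56 over the 9 where all tested genes had -0.12. Tnf itself rose by 6.15 ± 0.59 in cDC1 (2.40 ± 1.47 to 181 ± 59.6 CPM, adjusted p = 3.3e-07) and by 3.22 ± 0.52 in cDC2 (14.8 ± 8.61 to 153 ± 50.0 CPM, adjusted p = 0.000163). The responses differed (-2.94 ± 0.71, adjusted p = 0.036), and untreated cDC2 began higher (2.69 ± 0.55, adjusted p = 0.0025). Ltb, the partner of lymphotoxin alpha in the ligand of Ltbr, rose in cDC1 by 2.56 ± 0.48 and was lower in cDC2 than in cDC1 with all 4 treatments (-3.26 to -5.23). In cDC2, 2 ligands rose with LPS and 0 fell (median 1.73, against 0.03 for all genes).

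Adding PGPC to LPS lowered 1 ligand in cDC1, Ltb (126 ± 69.5 to 34.1 ± 5.66 CPM, -1.89 ± 0.46, adjusted p = 0.029). Tnf was at 181 ± 59.6 CPM with LPS and 66.5 ± 34.1 with LPS and PGPC in cDC1 (-1.45 ± 0.46, adjusted p = 0.1), and at 153 ± 50.0 and 65.2 ± 23.7 in cDC2 (-1.22 ± 0.46, adjusted p = 0.41). In cDC2, 0 ligands were called by edgeR, with 1 unadjusted p under 0.05 and 0 calls by DESeq2.

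Among 21 other receptors of the family 16 were tested. LPS raised 2 and lowered 7 in cDC1 (median -2.01) and raised 2 and lowered 1 in cDC2 (median -0.82). Cd40, the receptor of T cell help, rose in both (6.58 ± 0.66 and 5.75 ± 0.66), as did Relt (2.19 ± 0.52 and 2.27 ± 0.53). Tnfrsf21, the death receptor DR6, fell in both (-2.08 ± 0.41 and -2.66 ± 0.41), and Tnfrsf12a, the TWEAK receptor, fell in cDC1 (-4.84 ± 0.87). With PGPC added to LPS, Tnfrsf23 (3.22 ± 0.72), Tnfrsf12a (3.52 ± 0.85) and Tnfrsf22 (3.88 ± 1.03) rose in cDC1, all to group means of 3.94 to 7.07 CPM. In cDC2 Tnfrsf21 (1.85 ± 0.40) and Tnfrsf23 (2.68 ± 0.60) rose. Cd40 did not pass in either subset (-1.78 ± 0.52, adjusted p = 0.072, and -1.37 ± 0.51, adjusted p = 0.4).

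All 28 genes of the TRAF and receptor complex list were tested. With LPS 9 rose in cDC1 (median 0.84) and 10 in cDC2 (median 1.10), and 0 fell. They included Tank (3.45 ± 0.50), Traf3 (2.38 ± 0.36) and Map3k14, the kinase of the alternative NF-kB pathway (2.97 ± 0.45), in cDC1, and Cflar (3.10 ± 0.53), an inhibitor of caspase-8, and the ubiquitin ligase subunit Rnf31 (1.99 ± 0.41) in cDC2. Of 13 deubiquitinases and A20 partners, 5 rose in cDC1 and 4 in cDC2, among them Tnip1, the A20-binding protein ABIN1 (3.23 ± 0.44 and 2.46 ± 0.43), and Cyld, a deubiquitinase that acts beside A20 (2.23 ± 0.51 and 2.202 ± 0.53). Tnip3 rose in cDC1 (4.78 ± 0.58), and its LPS response differed between the subsets (-3.88 ± 0.74, adjusted p = 0.0087).

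Of 11 NF-kB subunits and inhibitors 9 rose in cDC1 (median 1.99) and 10 in cDC2 (median 2.72), and 0 fell. They included Relb (4.75 ± 0.52 and 2.98 ± 0.49) and the inhibitor gene Nfkbia (2.83 ± 0.45 and 3.37 ± 0.47). With PGPC added to LPS, 0 genes of these last 3 lists were called in either subset by edgeR. Unadjusted p under 0.05 were given to 5 TRAF list genes, 3 deubiquitinase list genes and 3 NF-kB list genes in cDC1, and to 2, 1 and 3 in cDC2. DESeq2 called 1, 1 and 0 in cDC1 and 1, 0 and 0 in cDC2. With PGPC alone, Tnip3 rose (2.25 ± 0.54, adjusted p = 0.026) and Bcl3, an NF-kB cofactor, fell (-4.16 ± 0.73, adjusted p = 0.00295) in cDC1. In cDC2 with PGPC alone, edgeR and DESeq2 called 0 genes of the 5 lists, and edgeR gave an unadjusted p under 0.05 to 2 TRAF list genes and 2 NF-kB list genes.

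Across the 23 libraries the levels of the members, as log2(CPM + 1), fell into loose pairs. Traf1 ran with Tnfaip3 (Pearson r = 0.85) and Birc3 (0.84), Tnfrsf1b with Tnfrsf11a (0.83), and Tnfrsf11a against Tnfrsf13c (-0.82). The tested genes outside the members most like Traf1 were Ccr7 (0.98), Ccl22 (0.97) and Il4i1 (0.97), and those most like Tnfaip3 were Il4i1 (0.91), St3gal1 (0.90) and Pvr (0.89). Birc3 was most like M6pr (0.94), Serpina3g (0.93) and Icam1 (0.92). The nearest genes of 6 of the 7 receptors were Rin2 for Tnfrsf1a (0.88), Tgfbi for Tnfrsf1b (0.94), Dot1l for Tnfrsf11a (0.95), Msrb1 for Ltbr (0.93), Ifi30 for Tnfrsf9 (0.86) and Tmem150c for Tnfrsf4 (0.78). The points share treatment, subset and library, so the values describe likeness of level only.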

How the data were processed

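Smart-Seq2 libraries were sequenced from dendritic cells of each subset and treatment. The authors deposited expected counts per gene, estimated with RSEM on GRCm38 after bcl2fastq 2.2, per the submitters' processing notes. The RSEM version, gene annotation and read filters were not given in the sources used here. Reads carry no molecular identifiers, so counting intervals and the floor of 3 counts cover counting error only.

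Expected counts were rounded to whole numbers. Genes were filtered with filterByExpr (minimum count 10, minimum total 15), which left 12463, and 23 libraries were fitted with 8 group means by the quasi-likelihood test of edgeR 4.0.16 in R 4.3.3, with TMM scaling and robust dispersion. P-values were adjusted by Benjamini and Hochberg over all tested genes, with a threshold of 0.05, in 14 comparisons, of which 2 were interactions. Standard errors are the fold change over the square root of F. The fit was tested on simulated counts. Total counts ran from 243870 to 16601064, so low genes are least precise in untreated cDC2 replicate 6.

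Groups came from the sample labels. Replicate numbers were taken to pair cDC2 with LPS and cDC2 with LPS and PGPC, and no other groups. There, deviations from the group means of same-numbered libraries correlated at 0.59, 0.132 and 0.273. Replicate 5 with LPS correlated higher, at 0.404, with replicate 6 of LPS with PGPC. Alternatives were RLE scaling, no filter, a replicate block, DESeq2 1.42.0, all 36 libraries, separate fits per subset, the ribosomal RNA locus left out and each library left out in turn. The 12 alum libraries and 1 cDC2 library with PGPC were left out as the choice of libraries for these genes required. The members and lists were chosen with earlier results of these data known. All 10 members are named. Of each pathway list, up to 4 called genes per comparison with the smallest adjusted p could be named, plus Tnf and Cd40, and for likeness the 3 tested genes with the highest Pearson r of log2(CPM + 1) over the 23 libraries, predicted gene models left out. The genes nearest to Tnfrsf13c are not reported here. Subset and contaminant markers come from 9 fixed lists.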

Additional observations from a re-analysis of the deposited data

Results flagged for a closer look

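For 2 members the LPS response differed between the subsets by the test of the difference itself. The log2 difference, cDC2 minus cDC1, was -2.56 for Tnfrsf11a and 7.98 for Tnfrsf13c, and the second rests on 1 count in untreated cDC2.

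The alum libraries enter no comparison above. Of the 120 values of members in the 12 alum libraries, 95 were 0, 14 were 1 to 3 counts and 11 were above 3 counts. In 7 of them, all with LPS and alum, the CPM of the plain library total, without TMM scaling, was above that in every untreated library of the same subset. Tnfrsf1a was at 3017 in replicate 5 of cDC2, where the highest untreated library had 148. Tnfrsf1b was at 5533 in replicate 4 of cDC2, against 411. Traf1 was at 144 and 520 in replicates 1 and 2 of cDC1, against 10.6, and at 61.7 and 3749 in replicates 4 and 5 of cDC2, against 46.8. Birc3 was at 746 in replicate 1 of cDC1, against 43.2. For each of these genes at least 1 other replicate of the same group held 0 or 1 count, and Traf1 was above the untreated libraries in 2 of the 3 replicates of each subset.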

How the results depend on the processing

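Of 38 member calls, 9 were kept in every setting tried, 25, those 9 included, in every setting other than the fit of all 36 libraries, and 0 reversed. Of 102 uncalled member values, 30 changed sign and 11 passed in some setting. With all 36 libraries the members called fell to 3 and 0 for LPS in cDC1 and cDC2, 0 for PGPC in cDC1, 1 and 0 for LPS with PGPC against untreated cells, 0 for LPS with PGPC against LPS in cDC1, 2, 0, 1 and 1 for cDC2 against cDC1 (untreated, LPS, PGPC, LPS with PGPC) and 1 for the difference in LPS response. For PGPC in cDC1, no filter and DESeq2 called 2 members, and separate fits 0. Separate fits and DESeq2 called 4 members for LPS with PGPC against untreated cDC2, and separate fits 1 for LPS with PGPC against LPS in cDC1. RLE scaling and DESeq2 called 1 for LPS with PGPC against LPS in cDC2, DESeq2 called 4 for cDC2 against cDC1 with LPS and PGPC, and 1 for the difference in the effect of adding PGPC. The cause was not tested.

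Leaving out 1 library at a time, the members called ranged from 6 to 6 and 3 to 4 for LPS in cDC1 and cDC2, 0 to 1 and 0 to 0 for PGPC, 5 to 8 and 2 to 3 for LPS with PGPC against untreated, 0 to 1 and 0 to 1 against LPS, 3 to 4, 2 to 4, 3 to 4 and 1 to 2 between the subsets (untreated, LPS, PGPC, both), and 1 to 3 and 0 to 1 for the differences in response.

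Replicate numbers were taken to pair the libraries of LPS and of LPS with PGPC in cDC2. The pairing is uncertain for replicate 5 with LPS, which correlated at 0.132 with its own number and at 0.404 with replicate 6 of LPS with PGPC. In that comparison the block left the members called at 0 (Tnfrsf1b at an adjusted p of 0.0749) and changed no member call. In the other comparisons not every pair passed: 6 of 18 same-numbered pairs in cDC1 and 3 of 15 in cDC2, all of that comparison, had correlated deviations above 0.1, and 13 of 23 libraries correlated best with their own number. With the replicate block, PGPC in cDC1 called 0 members, with Traf1 at an adjusted p of 0.0529, and Ltbr passed with LPS in cDC1 (0.0331). The subsets share no numbers, so no block was possible between them.

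Over all genes, the count called moved by over 1.5 times as follows. With 36 libraries, 2235 and 1062 (LPS, cDC1 and cDC2) became 596 and 232, 259 and 2 (PGPC) became 43 and 0, 1480 and 950 (LPS with PGPC) became 362 and 155, 241 and 48 (LPS with PGPC against LPS) became 8 and 2, the 1265, 972, 1502 and 890 between subsets became 118, 300, 285 and 143, and the interactions went from 166 and 1 to 6 and 0. Without the filter PGPC gave 632 and 33, LPS with PGPC against LPS 585 and 156, and the interactions 425 and 97. DESeq2 gave 642 and 13, 712 and 200, and 424 and 59. Separate fits gave 68 and 1 for PGPC and 88 for LPS with PGPC against LPS in cDC2, and the block 1 for PGPC in cDC2. RLE scaling moved the higher share of calls for LPS with PGPC against LPS in cDC2 from 72.9% to 61.5%. Leaving out 1 library gave, for example, 60 to 273 genes for LPS with PGPC against LPS in cDC1, 448 to 1522 between the subsets with PGPC and 75 to 442 for the LPS interaction. Low counts limit Tnfrsf4 and, in cDC2, Tnfrsf13c.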
